A study of Mus musculus with 12 samples.

Results

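Runx1, Runx2, Runx3 and Cbfb are the 3 mouse genes of the RUNX transcription factors and the gene of their shared partner protein. They were taken by name from the deposited count table, 4 genes of 56941, and all 4 were found and passed the filter on low counts. RNA had been sequenced from CH12F3-2A, a mouse B cell lymphoma line that switches from IgM to IgA, in 12 libraries that form 4 groups of 3. The groups sgCtr_no and sgCtr_CIT carried a non-targeting guide, and sgNop16_no and sgNop16_CIT a guide against Nop16, a nucleolar protein gene. All 12 libraries came from cells transfected with pX459, a plasmid that carries Cas9 beside the guide, and held for 72 h in puromycin. The 2 CIT groups were then treated for 24 h with IL-4, TGF-β and an agent written anti-CD40L in the treatment protocol and CD40L in the design text. The design asks what Nop16 does in class switching, and the labels name 1 guide target and no single clone, so the guide groups compare cell populations with 1 guide target each.

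RUNX proteins bind DNA through the Runt domain and raise or lower transcription depending on the proteins beside them. CBFβ, the product of Cbfb, does not bind DNA itself but strengthens the binding of all RUNX proteins and protects them from degradation. Runx1 is needed for early B cell development, Runx2 is best known as the master regulator of osteoblasts, and Runx3 acts with SMAD proteins downstream of TGF-β, also at the promoter of the germline transcript that precedes switching to IgA. Each RUNX gene has an upstream and a downstream start site. In human B cell lines RUNX3 has been described to repress RUNX1 through RUNX sites at the upstream start, and whether this bears on the values here was not tested.

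The upstream starts of the 3 RUNX genes carry the same stretch of letters, which is shown because it holds 2 copies of the RUNX core in every member of the family. The windows are from RefSeq (GRCm38.p6), 250 bases before to 50 after each annotated start, for 6 starts of the 4 genes. Capitals mark the longest run that the 3 windows share, 18 bases, found by comparing these windows; read on the other strand it holds TGTGGT in 2 places. They are Runx1 chr16:92826025-92826054 (minus strand), Runx2 chr17:44814583-44814612 (minus strand) and Runx3 chr4:135120503-135120532 (plus strand), 30 bases each.
Runx1: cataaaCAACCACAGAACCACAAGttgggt
Runx2: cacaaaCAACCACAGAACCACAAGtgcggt
Runx3: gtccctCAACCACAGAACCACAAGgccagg

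The run lies 26 bases after the annotated start of Runx1, 21 bases after that of Runx2 and at position -136 from that of Runx3. Of 32851 windows of the same length, 4 (0.0122%) held it: these 3 and that of Gm16225, whose window overlaps the Runx3 window by 232 bases. The core TGTGGT, on either strand, was in 16.8% of all windows and in 3 of the 6 windows of the 4 genes. Those 3 are the windows of the shared run, so this counts the same letters again. Only Runx2 has a match outside the run, at position -80. The variant TGCGGT was in 6.45% of all windows and in 1 of the 6, that of Runx2, just past the shared run. The Cbfb window and the downstream windows of Runx1 and Runx3 held neither.

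The downstream start of Runx3 is shown because it holds the palindrome GTCTAGAC, 2 SMAD boxes back to back, in capitals below, at position -175 from the start. It was in 0.213% of all windows and in 1 of the 6. The stretch is chr4:135152295-135152544, plus strand, GRCm38.p6, the 250 bases before the start, in a window with 77.3% G and C.
Runx3 downstream: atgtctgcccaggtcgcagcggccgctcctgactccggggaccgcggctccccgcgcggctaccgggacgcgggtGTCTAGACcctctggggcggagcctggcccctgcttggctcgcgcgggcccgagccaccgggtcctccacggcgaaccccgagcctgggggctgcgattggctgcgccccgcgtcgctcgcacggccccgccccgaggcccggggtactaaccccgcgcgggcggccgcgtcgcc

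TTCNNNGAA, the STAT type of site, was in 8.3% of all windows, TTC and GAA with 4 bases between them in 6.95% and the NF-kB consensus in 8.46%, and none of these letters was in the 6 windows. These matches describe letters only. The deposited values are counts per gene, so they do not separate the upstream from the downstream start of any RUNX gene.

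**Figure D1:**
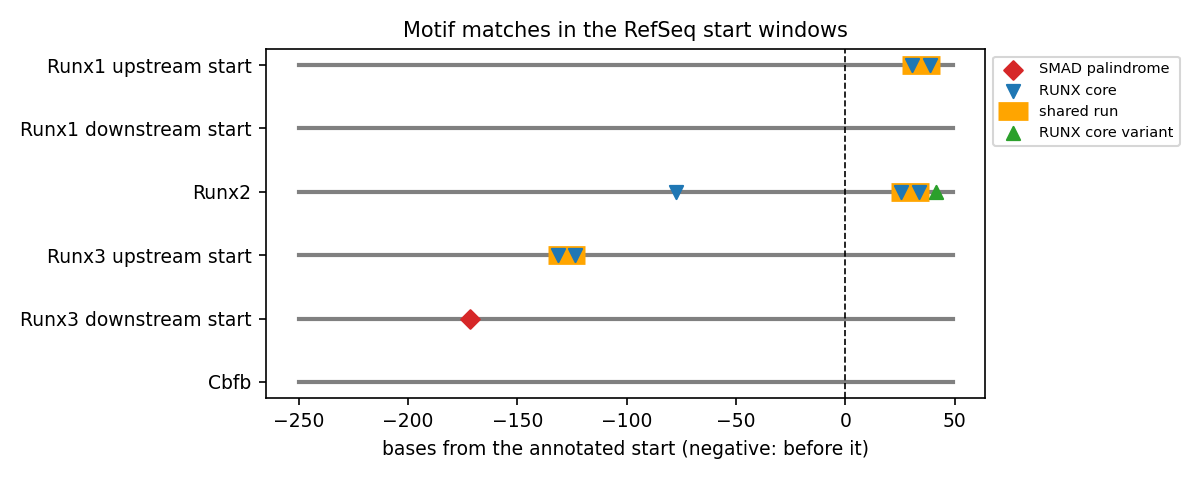
Motif matches in the RefSeq start windows of the 4 genes, with the distance in bases from the annotated start on the x axis and 1 row per start. Orange bars mark the shared run of 18 bases, blue and green triangles RUNX cores, and the red diamond the SMAD palindrome; the run sits just after the upstream starts of Runx1 and Runx2 and before that of Runx3.

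Total counts per library lay between 38866418 and 48615177. Levels are given in CPM, counts scaled to the library total, and differences are log2 values with the standard error of the model, tested with edgeR's quasi-likelihood F test and adjusted by the Benjamini-Hochberg method over 16794 genes. Calls were made where the adjusted p was below 0.05. Nop16 was 106 ± 2.35 CPM in sgCtr_no and 85.7 ± 3.10 in sgNop16_no (SD, n = 3), 77.1 ± 3.46 in sgCtr_CIT and 65.7 ± 0.930 in sgNop16_CIT, lower with its guide in both states by log2 -0.31 ± 0.04 and -0.23 ± 0.04 (adjusted p = 0.000109 and 0.00204), so most of its RNA remained. The 8 B cell markers were all present, with a summed level of 1866 to 2147 CPM over the libraries. Of other cells the defining markers Cd3e, Cd3g and Cd2 of T cells, Lyz2, Cd14 and C1qa of macrophages, Ncr1 and Gzmb of NK cells and Ibsp of osteoblasts were at or near 0. The T cell list of 8 genes summed to 183 to 216 CPM, nearly all of it Lck (182 to 214 CPM), and Prf1 of the NK cell list was at 6.28 to 12.9 CPM. The macrophage list of 6 genes summed to 1.20 to 9.80 CPM and the osteoblast list of 4 genes to 0.493 to 2.32 CPM.

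CIT moved Runx1 in the other direction from Runx2 and Runx3. Runx3 and Runx2 rose, Runx1 fell, and Cbfb fell slightly, with either guide. All 4 genes were called with sgCtr, where 41.7% of all genes tested were called, and all 4 with sgNop16, where 37.8% were. The libraries with and without CIT did not overlap for any of the 4 genes with either guide, which held for 50.6% and 47.0% of all genes. CIT thus moved a large part of all genes, and the share of the 4 genes called is to be read against that. The median size of the log2 change over all genes was 0.30 with sgCtr and 0.27 with sgNop16, and the 90th percentile 1.30 and 1.25.

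Runx3 was at 174, 183 and 178 CPM in the sgCtr_no libraries and at 265, 278 and 286 CPM in the sgCtr_CIT libraries. Every library with CIT was above every library without. With the Nop16 guide it was at 189, 189 and 181 CPM without CIT and at 305, 299 and 295 CPM with it. The rise was 1.55-fold with sgCtr (log2 0.63 ± 0.03, adjusted p = 1.91e-13) and 1.61-fold with sgNop16 (log2 0.68 ± 0.03, adjusted p = 5.24e-14), each beyond the median size over all genes and short of its 90th percentile.

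Runx1, the factor of blood stem cells and early lymphocytes, went the other way. It was at 16.3, 23.4 and 18.6 CPM in sgCtr_no and at 8.87, 8.86 and 8.06 CPM in sgCtr_CIT. With the Nop16 guide it was at 18.2, 18.3 and 20.8 CPM without CIT and at 10.5, 10.9 and 11.9 CPM with it. The unstimulated libraries were the high ones with both guides, and sgCtr_no had the widest spread, with its second library highest. Runx1 fell by 55.7% with sgCtr, 2.26-fold (log2 -1.18 ± 0.12, adjusted p = 3.06e-08), and by log2 -0.78 ± 0.12 with sgNop16 (adjusted p = 1.31e-05). In the GENCODE M21 annotation 106 exon bases of Runx1 lie opposite those of the antisense gene Gm26626, which was at 0 to 0.150 CPM.

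Runx2, best known from osteoblasts, was at 16.1, 17.8 and 15.5 CPM in sgCtr_no and at 27.9, 27.2 and 26.1 CPM in sgCtr_CIT. With the Nop16 guide it started higher, at 24.5, 24.5 and 26.2 CPM, and reached 33.7, 32.3 and 31.8 CPM with CIT. Libraries with CIT were above those without for each guide, but the sgNop16_no and sgCtr_CIT libraries overlapped. The rise was log2 0.72 ± 0.08 with sgCtr (adjusted p = 5.78e-08) and 0.38 ± 0.08 with sgNop16 (adjusted p = 0.000293). The antisense gene Runx2os1 shares 519 exon bases with Runx2 and was at 0.0956 to 0.792 CPM, far below it; whether the counting used strand is not stated in the sources.

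Cbfb, the partner that all 3 RUNX proteins share, was at 165, 176 and 181 CPM in sgCtr_no and at 153, 155 and 156 CPM in sgCtr_CIT. With the Nop16 guide it was at 167, 164 and 172 CPM without CIT and at 155, 150 and 158 CPM with it. The lowest library without CIT was still above the highest with CIT for each guide. The fall was smaller than the median size over all genes, log2 -0.17 ± 0.04 with sgCtr (adjusted p = 0.000535) and -0.12 ± 0.04 with sgNop16 (adjusted p = 0.0122). Without the second sgNop16_CIT library the latter was -0.10 with an adjusted p of 0.0687, no longer called.

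**Figure D2:**
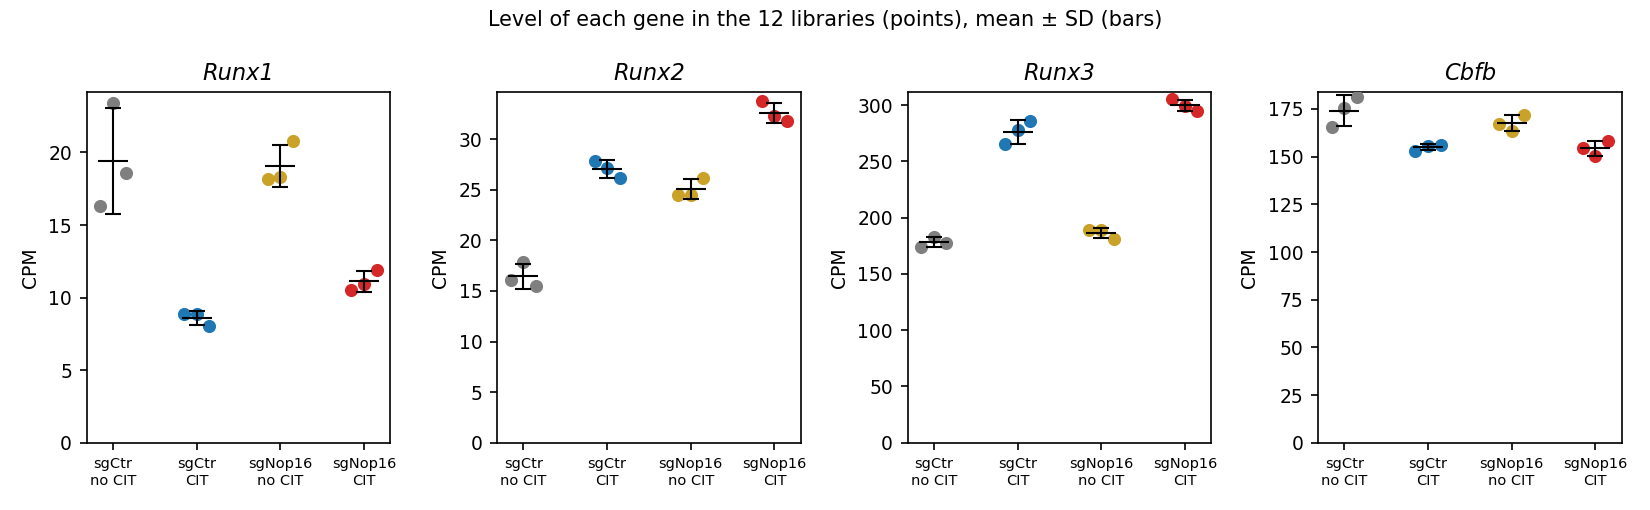
Level of each gene in CPM in the 12 libraries (points) by group, with the mean and SD of 3 libraries (bars) and an axis from 0 for each gene. Runx3 and Runx2 were higher and Runx1 and Cbfb lower with CIT for both guides, and Runx2 was higher with sgNop16 than with sgCtr in both states.

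Levels can be set side by side between genes only per length, here as CPM per kb of the union of exons (GENCODE M21), 12025 bases for Runx1, 8837 for Runx2, 5003 for Runx3 and 3480 for Cbfb. In sgCtr_no the order was Cbfb at 50.05 ± 2.33, Runx3 at 35.6 ± 0.842, Runx2 at 1.86 ± 0.139 and Runx1 at 1.61 ± 0.302 CPM per kb (SD, n = 3), and the last 2 did not differ beyond their spread. In sgCtr_CIT Runx3 stood above Cbfb, 55.3 ± 2.11 against 44.5 ± 0.469 CPM per kb, and Runx2 at 3.06 ± 0.0998 above Runx1 at 0.715 ± 0.0386. With sgNop16 the same order held, with Cbfb at 48.1 ± 1.18 and Runx3 at 37.3 ± 0.901 without CIT, and Runx3 at 59.9 ± 1.03 and Cbfb at 44.3 ± 1.12 with it. With the length of the longest coding transcript instead, Runx1 came above Runx2 in sgCtr_no, at 3.31 against 2.55 CPM per kb.

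Runx3 made up most of the family's RNA in these cells. Its share of the summed RUNX level per kb was 91.1 ± 0.794% in sgCtr_no, 93.6 ± 0.439% in sgCtr_CIT, 89.4 ± 0.729% in sgNop16_no and 92.9 ± 0.0674% in sgNop16_CIT (SD, n = 3). The share of Runx1 went from 4.12% to 1.21% with sgCtr and from 3.81% to 1.43% with sgNop16, on the same scale. The summed RUNX level was 0.782 ± 0.0329 of the Cbfb level in sgCtr_no and 1.33 ± 0.0308 in sgCtr_CIT, and 0.867 ± 0.0340 and 1.46 ± 0.0498 with sgNop16. On this scale RUNX RNA per kb was thus below that of Cbfb in each group without CIT and above it in each group with CIT. The same held with the longest coding transcripts (0.860, 1.43, 0.952 and 1.58). On both scales Runx3 is the longer gene, but the shortest coding transcripts have 1855 bases for Runx3 and 2487 for Cbfb. With those lengths Runx3 would stand above Cbfb without CIT as well, so the side depends on the length used. These shares rest on annotated lengths and say nothing of protein.

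The counts of Runx3 over those of Runx1 within a library need no scaling to library size. This ratio was 10.7, 7.81 and 9.57 in sgCtr_no and 29.9, 31.4 and 35.5 in sgCtr_CIT. It was 10.4, 10.3 and 8.73 in sgNop16_no and 29.0, 27.3 and 24.8 in sgNop16_CIT. No library with CIT came near one without. The ratio was 3.09-fold higher with CIT (log2 1.63), 3.46-fold with sgCtr and 2.76-fold with sgNop16. The exact two-sided permutation test within guides gave p = 0.005, the smallest its 400 relabellings allow. With either guide, Runx3 was higher and Runx1 lower in every library with CIT, as given above. That fixed this p in advance, so it is no result apart from those of the 2 genes. Between the guides, within states, the difference was log2 -0.09 (exact two-sided permutation p = 0.405). That value averages 0.08 without CIT, where the libraries overlapped, and -0.25 with CIT, where the sgNop16_CIT libraries were all below those of sgCtr_CIT; neither state was tested alone. These were the only 2 tests of a ratio, and with Benjamini-Hochberg adjustment over both the values are 0.01 and 0.405.

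**Figure D3:**
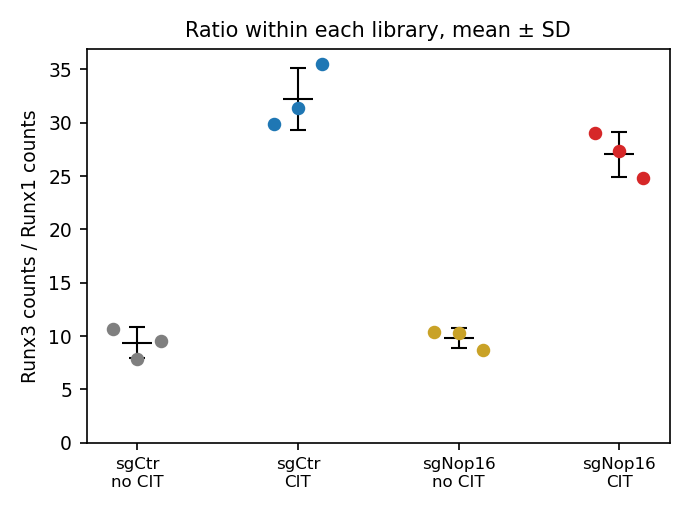
Counts of Runx3 divided by counts of Runx1 in each of the 12 libraries (points) by group, with the mean and SD of 3 libraries (bars) on an axis from 0. The 6 libraries without CIT lie between 7.81 and 10.7 and the 6 with CIT between 24.8 and 35.5.

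Between the guides, Runx2 was called higher with sgNop16 in both states. Without CIT, Runx2 was higher with sgNop16 in every library, 24.5 to 26.2 against 15.5 to 17.8 CPM, a 1.52-fold difference (log2 0.61 ± 0.08, adjusted p = 2.79e-05). It was the 1 gene of the 4 called, where 4.06% of all genes were, and the 1 whose libraries did not overlap, as for 18.8% of all genes. Its difference was above the median size of 0.11 and below the 90th percentile of 0.72 over all genes. Runx1 (-0.03 ± 0.12, 95% interval -0.27 to 0.22), Runx3 (0.06 ± 0.03, interval -0.0034 to 0.13) and Cbfb (-0.06 ± 0.04, interval -0.13 to 0.02) were not called, with adjusted p of 0.962, 0.374 and 0.536.

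With CIT, Runx2 and Runx3 were called higher with sgNop16, 2 of the 4 genes where 7.12% of all genes were called. Runx2 was 31.8 to 33.7 against 26.1 to 27.9 CPM (log2 0.27 ± 0.08, adjusted p = 0.0312), and Runx3 295 to 305 against 265 to 286 CPM (log2 0.12 ± 0.03, adjusted p = 0.0297). Both calls were near the threshold: leaving out any 1 of the 6 libraries with CIT ended that of Runx2 (adjusted p up to 0.123), and leaving out any of 7 ended that of Runx3 (up to 0.179), namely the 3 of sgNop16_CIT and the first and second of sgCtr_CIT and of sgNop16_no. Runx1 was higher in every sgNop16_CIT library, 10.5 to 11.9 against 8.06 to 8.87 CPM, but not called (log2 0.37 ± 0.12, 95% interval 0.12 to 0.62, adjusted p = 0.0721). DESeq2 put it past the threshold (adjusted p = 0.0454), as did a stricter filter on low counts (0.0444). The libraries did not overlap for Runx1, Runx2 and Runx3, as for 24.1% of all genes, while Cbfb overlapped and was not called (-0.01 ± 0.04, interval -0.08 to 0.07, adjusted p = 0.97).

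Whether the CIT response differed between the guides was tested as an interaction, in which 2.83% of all genes were called, 1.23% higher and 1.6% lower. None of the 4 genes was called by edgeR, and Runx1 and Runx2 had an unadjusted p under 0.05. The fitted response of Runx2 was smaller with sgNop16 (log2 -0.34 ± 0.11, 95% interval -0.56 to -0.11, adjusted p = 0.103), and DESeq2 called it (adjusted p = 0.0434). That of Runx1 differed by 0.40 ± 0.17 (adjusted p = 0.283), by 0.23 without the second sgCtr_no library, where Runx1 was highest. Runx3 (0.05 ± 0.05, adjusted p = 0.723) and Cbfb (0.05 ± 0.05, adjusted p = 0.767) were far from the threshold. The 5 comparisons share their libraries in pairs, so they are given side by side and not as independent results.

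**Figure D4:**
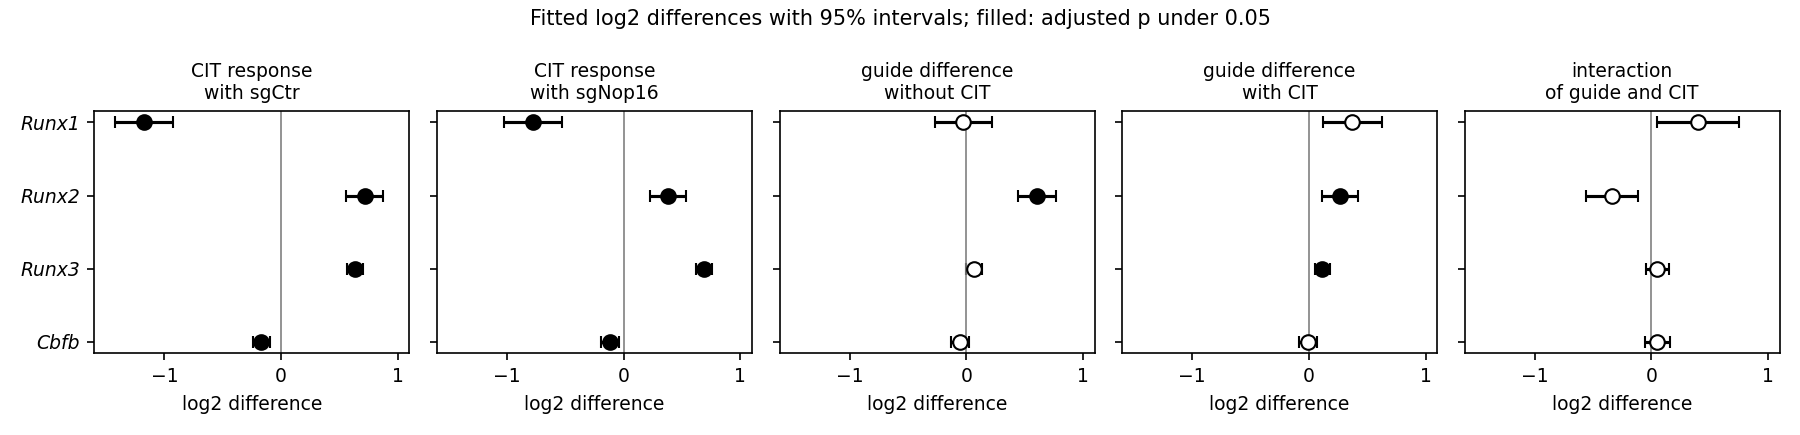
Fitted log2 differences of the 4 genes (points) with 95% intervals (bars) in the 5 comparisons, filled where the adjusted p was under 0.05. All 4 points are filled in both CIT panels, Runx2 alone in the guide panel without CIT, Runx2 and Runx3 in that with CIT, and none in the interaction panel.

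Over the 12 libraries, the genes with the pattern most like that of each of the 4 were ranked by Pearson's r of log2 CPM among 9462 genes of at least 5 CPM on average. For Runx3 they were Adgrg1 (0.997), Junb (0.997) and Nfkb1 (0.996). Junb, an AP-1 subunit, went from 119 to 284 CPM with sgCtr and from 130 to 337 with sgNop16. For Runx1 they were Trib3 (0.985), Kpnb1 (0.982) and Rad23b (0.981), all lower with CIT. For Runx2 they were Cst7 (0.975), Lamp1 (0.974) and Slc44a1 (0.971). Cst7 shared the higher level with sgNop16 without CIT, 37.8 ± 1.82 against 22.7 ± 1.93 CPM (SD, n = 3). For Cbfb they were Cltb (0.965), Ube2j2 (0.963) and Msi2 (0.962). The points share libraries and groups, so these values rank likeness only.

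The other genes of the pathway were taken as 4 lists. Over all genes tested, 20.6% were called higher and 21.1% lower with CIT in sgCtr, and 19.3% and 18.5% in sgNop16. Between the guides 2.14% were called higher and 1.92% lower with sgNop16 without CIT, and 4.05% and 3.07% with it. In the relay from TGF-β to the SMAD proteins that work beside RUNX, 11 of 12 genes were tested, Tgfbr3 being at 0 in every library. With CIT, 8 rose and 1 fell with sgCtr, and 7 rose and 1 fell with sgNop16, with a median log2 change of 1.51 and 1.01 against 0.02 and 0.01 over all genes. Tgfbr1, the signalling TGF-β receptor, went from 57.6 ± 2.62 to 517 ± 15.3 CPM with sgCtr (log2 3.16 ± 0.04, adjusted p = 6.28e-25) and from 58.9 ± 1.91 to 384 ± 5.58 CPM with sgNop16 (SD, n = 3). Smad6, an inhibitory SMAD, rose by log2 2.91 ± 0.27 and 2.55 ± 0.27, and Skil, a co-repressor of SMADs, by 2.31 ± 0.05 and 2.12 ± 0.05. Smad3, a receptor-activated SMAD, fell, by log2 -0.94 ± 0.11 with sgCtr and -1.08 ± 0.11 with sgNop16. Smad2, another receptor-activated SMAD of the list, was not called with either guide. It was at 52.8 ± 0.519 CPM without and 52.9 ± 1.35 with CIT in sgCtr, and at 53.6 ± 2.19 and 49.4 ± 3.89 in sgNop16.

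Between the guides 1 gene of this list was called in each state. Tgfbr1 was lower with sgNop16 under CIT (log2 -0.43 ± 0.03, adjusted p = 2.18e-08). Tgfbr2, the receptor that binds the ligand, was higher with sgNop16 without CIT (0.14 ± 0.04, adjusted p = 0.0348), a call that ended when any 1 of the 6 libraries without CIT was left out (adjusted p up to 0.106). It also ended with no filter on low counts (0.0521) and with only the groups compared in the fit (0.0802).

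Of the co-repressors, co-activators and enzymes that modify RUNX, 20 of 23 were tested. With CIT, 7 rose and 6 fell with sgCtr, and 6 rose and 5 fell with sgNop16, with medians of 0.06 and 0.09. Smurf1, a ubiquitin ligase for RUNX and SMAD proteins, went from 25.2 ± 1.38 to 63.2 ± 1.38 CPM with sgCtr (log2 1.33 ± 0.08). Hipk2, a kinase of RUNX1, rose by log2 1.05 ± 0.06 and Wwtr1, a co-activator, by 1.19 ± 0.33 from 1.19 ± 0.522 CPM. Tle5, the short Groucho family member, fell from 144 ± 2.16 to 84.0 ± 3.36 CPM with sgCtr (log2 -0.78 ± 0.04, adjusted p = 6.02e-14). Prmt1, which methylates RUNX1, fell by log2 -0.41 ± 0.03 and Cbfa2t3, an ETO family co-repressor, by -0.25 ± 0.07. With sgNop16 the falls of Tle5, Tle4 and Hdac1 were the largest of the list, at -0.62 ± 0.04, -0.56 ± 0.03 and -0.27 ± 0.03.

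Between the guides, 1 of the 20 was called without CIT, Tle5, lower with sgNop16 (log2 -0.24 ± 0.04, adjusted p = 0.000289). With CIT 2 were called: Tle4, a Groucho co-repressor, lower (-0.32 ± 0.03, adjusted p = 9.73e-07) and Prmt1 higher (0.12 ± 0.03, adjusted p = 0.0216). The Prmt1 call ended without the first or the third sgCtr_CIT or the first or the second sgNop16_CIT library (adjusted p up to 0.0947).

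Of the transcription factors and adaptors that meet RUNX proteins on DNA, 15 of 18 were tested. With CIT 3 rose and 3 fell with sgCtr, and 3 rose and 4 fell with sgNop16, with medians of 0.15 and -0.01. Lmo2, an adaptor of blood stem cell complexes, went from 164 ± 7.85 to 60.6 ± 2.57 CPM with sgCtr (log2 -1.44 ± 0.04, adjusted p = 1.34e-17). Myb fell by log2 -1.06 ± 0.04 and Ets1, which binds DNA together with RUNX1, by -0.75 ± 0.03. Fli1, another ETS factor, rose by 0.54 ± 0.06, Ldb1, the partner of LMO proteins, by 0.29 ± 0.05, and Gata1 by 1.59 ± 0.49 at a level of about 1 CPM, with 1.16 and no call without the third sgCtr_CIT library (adjusted p = 0.105).

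Ets1 was lower with sgNop16 in both states (log2 -0.29 ± 0.03 without and -0.33 ± 0.03 with CIT, adjusted p = 3.9e-06 and 4.69e-07). Myb was lower without CIT (-0.21 ± 0.04, adjusted p = 0.00275) and higher with it (0.25 ± 0.04, adjusted p = 0.000375). Lyl1 was lower with CIT (-0.32 ± 0.06, adjusted p = 0.000691). In all, 2 of the 15 were called between guides without CIT and 3 with it.

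Of 24 genes described as direct RUNX targets in other cells, 14 were tested, and several of those left out, such as Rag1, Ifng and Mpo, are genes of other cell types or stages. With CIT 6 rose and 3 fell with sgCtr, and 9 rose and 4 fell with sgNop16, with medians of 0.34 and 0.54. Bcl2l11, the pro-apoptotic gene of BIM, went from 39.2 ± 2.60 to 121 ± 2.35 CPM with sgCtr (log2 1.63 ± 0.06, adjusted p = 1.39e-16). Socs3, an inhibitor of cytokine receptors, went from 2.16 ± 0.544 to 11.9 ± 0.543 CPM. Csf1r, the macrophage growth factor receptor, went from 0.811 ± 0.144 to 4.54 ± 0.941 CPM, and both were called. In the GENCODE M21 annotation 873 exon bases of Csf1r lie opposite those of Hmgxb3, a protein-coding gene. Since the strand setting of the counting is not stated, reads of Hmgxb3 may be among those counts, which was not tested. The macrophage marker list, of which Csf1r is 1 of 6 genes, summed to 1.20 to 2.12 CPM in libraries without CIT and 4.35 to 9.80 CPM in those with it. Lyz2, Cd14 and C1qa were at 0 in all groups. Adgre1 was called higher with CIT in sgCtr, from 0 to 0.686 CPM, and Itgam lower, from 0.704 to 0 CPM. In sgNop16 neither was called with CIT. Adgre1 was also called higher with sgNop16 without CIT (0.319 against 0 CPM) and in the interaction, where its difference was negative.

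Zbtb7b, the ThPOK factor that RUNX3 represses in T cells, fell from 40.2 ± 2.62 to 18.0 ± 1.03 CPM with sgCtr (log2 -1.16 ± 0.08, adjusted p = 8.56e-11) and by -1.45 ± 0.09 with sgNop16. Blk, a B cell kinase gene, fell by -0.36 ± 0.04 and -0.77 ± 0.04. Cd4, the textbook gene of the RUNX silencer in T cells, was called lower with either guide but lay near 0 throughout. It was at 0.876 ± 0.0790 CPM in sgCtr_no and 0.227 ± 0.0890 in sgCtr_CIT. That call ended without any 1 of 4 sgCtr libraries, the first or the third without CIT and the first or the second with it (adjusted p up to 0.0932). With sgNop16 Cd4 went from 1.15 ± 0.199 to 0.0686 ± 0.119 CPM (log2 -3.92 ± 0.81, adjusted p = 0.000399). The sgNop16 call held under every alternative run, with log2 values from -8.65 to -3.38. The bone genes Spp1 and Sp7, targets or relays of Runx2 in osteoblasts, were called higher with CIT in sgNop16 only, at means of at most 0.672 and 1.17 CPM, and the interaction was not called for either (adjusted p = 0.737 and 0.157). The Spp1 call ended without the first or the third sgNop16_no or the second sgNop16_CIT library (adjusted p up to 0.0692).

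Between the guides, 3 of these 14 genes were called without CIT and 4 with it. Without CIT Bcl2l11 (log2 0.33 ± 0.06) and Itgal, the integrin chain of LFA-1 (0.15 ± 0.03), were higher with sgNop16, and Igha, the constant region gene of IgA, lower (-0.13 ± 0.02, adjusted p = 0.00106). With CIT Cdkn1a, the p21 cell cycle inhibitor, was 19.2 ± 1.28 with sgNop16 against 11.6 ± 1.36 CPM with sgCtr (log2 0.73 ± 0.12, adjusted p = 0.000256). Blk was lower (-0.34 ± 0.04, adjusted p = 1.13e-05). Bcl2l11 was lower by -0.19 ± 0.05 (adjusted p = 0.0314) and Sp7 higher at about 1 CPM (adjusted p = 0.0404), and each call ended without any 1 of 5 libraries with CIT (adjusted p up to 0.196 and 0.146), all but the first sgNop16_CIT library for Bcl2l11 and all but the third sgCtr_CIT library for Sp7. Both calls also ended in the fit without the robust setting (adjusted p = 0.0568 and 0.0536).

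**Figure D5:**
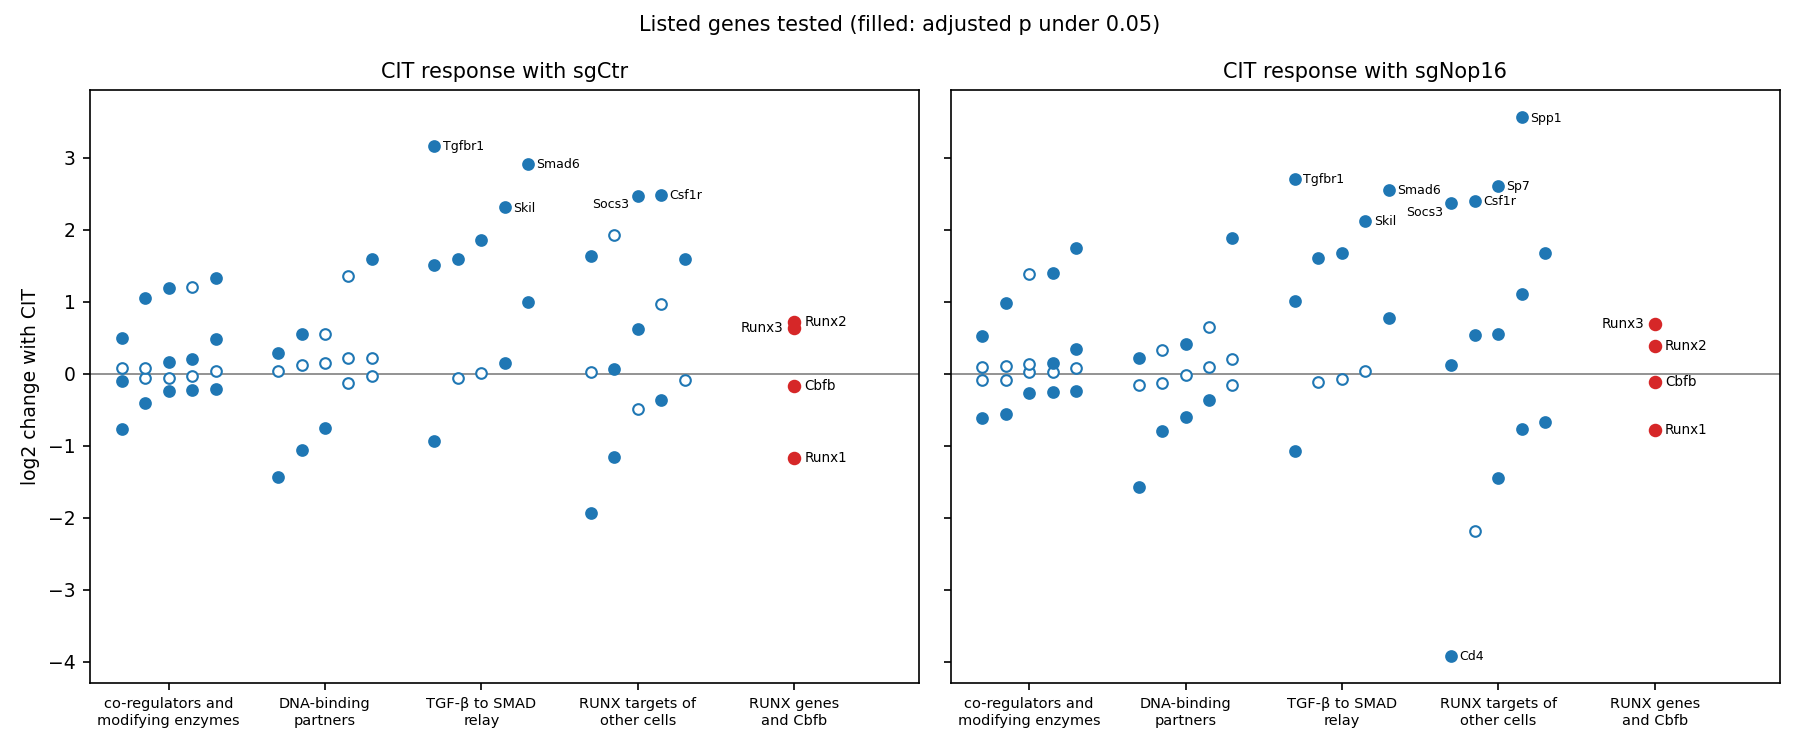
Log2 change with CIT of the genes tested in the 4 lists (blue) and of the 4 RUNX and Cbfb genes (red), with sgCtr on the left and sgNop16 on the right. Filled points had an adjusted p under 0.05, and called genes past a change of 2 are named; the TGF-β to SMAD list lies mostly above 0, and the other lists lie on both sides.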

How the data were processed

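The table the authors deposited holds estimated counts per Ensembl gene, 56941 genes in 12 libraries, in whole numbers without scaling to depth. Per the submitters' processing notes, HISAT2 2.2.1, StringTie 2.2.1 and the build GRCm39 were used, without stated roles; the sources used here do not give annotation, strand setting or filters. Per the labels' protocols, a directional kit was used on total RNA. Of the values from 1 to 7, 19.4% equalled 4, so 1 fragment may be worth about 4 counts, which no source states; counts divided by 4 were an alternative. Symbols (51948 genes matched), exon lengths and overlaps came from GENCODE M21 (GRCm38), and start windows from RefSeq (GRCm38.p6).

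The deposited values, already whole, were used as they stand. Genes were filtered with filterByExpr, which kept 16794, and tested with edgeR 4.0.16 (R 4.3.3) by quasi-likelihood F test, with TMM factors of 0.985 to 1.013, 1 mean per group over all 12 libraries and a common dispersion of 0.015. The robust setting of that fit follows earlier work on these data, and the fit without it is an added alternative, chosen after seeing the data. The fit was tested on simulated data. Alternatives were RLE factors, library totals, no or a stricter filter (5 CPM in 3 libraries), a replicate block, only the groups compared, DESeq2 1.42.0 and leaving out each library.

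The 4 genes and the lists were chosen with earlier results of these data known. The text names, from each list, up to 3 called genes with the largest change each way in a comparison, and the 3 genes most like each of the 4 (log2 of CPM plus 0.5); members counted beside them that fall outside this rule were named after their values were seen. The labels call the replicates biological but name no separate cultures, so p-values measure the spread between these libraries.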

Additional observations from a re-analysis of the deposited data

Results flagged for a closer look

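Among the genes listed around the RUNX factors, 7 had CIT responses that differed between the guides at an adjusted p under 0.05. The test was the interaction in edgeR's quasi-likelihood fit, where 2.83% of all genes were called. They were 1 of 20 co-regulators and modifying enzymes tested, 2 of 15 DNA-binding partners, 2 of 11 TGF-β to SMAD genes and 2 of 14 RUNX targets. The lists were chosen with earlier results of these data known, so these shares are no test of the lists.

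Myb fell by log2 -1.06 with sgCtr and -0.60 with sgNop16, a difference of 0.46 ± 0.06 (adjusted p = 4.62e-05). Tgfbr1 rose by 3.16 and 2.70, a difference of -0.46 ± 0.05 (adjusted p = 6.69e-06). Tgfbr2 rose by 0.99 and 0.77, a difference of -0.22 ± 0.05 (adjusted p = 0.0207).

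Bcl2l11 rose by 1.63 with sgCtr and 1.11 with sgNop16, a difference of -0.52 ± 0.08 (adjusted p = 0.000479). Blk fell by -0.36 and -0.77, a difference of -0.41 ± 0.06 (adjusted p = 0.00022). Tle4 fell by -0.23 and -0.56, a difference of -0.33 ± 0.05 (adjusted p = 0.000176). Lyl1 changed by -0.04 with sgCtr, not called, and by -0.36 with sgNop16, a difference of -0.33 ± 0.08 (adjusted p = 0.0257). The call of Tgfbr2 ended without the second sgCtr_CIT or the third sgNop16_CIT library (adjusted p up to 0.0668). That of Lyl1 ended without the second library of any group, the first sgCtr_CIT or the third sgNop16_CIT library (up to 0.0898). None of the 4 RUNX and Cbfb genes was among the genes called in this test.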

How the results depend on the processing

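The CIT calls of Runx1, Runx2 and Runx3 with either guide, of Cbfb with sgCtr, and of Runx2 between guides without CIT held under every alternative run. Leaving out 1 library moved the CIT response of Cbfb with sgNop16 between -0.15 and -0.10 (log2), and the guide differences with CIT of Runx2 between 0.24 and 0.29, of Runx3 between 0.087 and 0.14, and of Runx1 between 0.32 and 0.41. Runx1 passed the threshold at 0.37 with a filter of 5 CPM and with DESeq2, and without the second sgCtr_no library (adjusted p = 0.0499). Runx2's interaction was called by DESeq2 at -0.34. Differences near 0 changed sign when 1 library was left out: Runx1 between guides without CIT (-0.13 to 0.13, with 0.13 without the second sgCtr_no library, 0.012 and 0.0061 without the first or second sgNop16_no library) and Cbfb with CIT (-0.023 to 0.014, with 0.00042 without the third sgCtr_CIT library). Genes called between guides with CIT numbered 1195, and 777 to 1162 with 1 library left out (777 without the second sgNop16_CIT library). In the interaction they numbered 475, 767 with DESeq2 and 305 to 389 with 1 library left out. Without CIT they numbered 682 between guides, and 460 to 655 with 1 library left out. For these changes the cause was not tested.

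Same-numbered libraries did not deviate together (correlations from -0.202 to 0.158 over 18 pairs), so the numbers were not taken as pairs. A replicate block changed no call of the 4 genes and ended that of Sp7 between guides with CIT (adjusted p = 0.0776). With it Runx2 differed between guides by 0.61 without and 0.27 with CIT, and Runx3 by 0.12 with CIT (adjusted p = 0.0446 and 0.0407 with CIT). With that block 1117 genes were called between guides with CIT. The Runx3 to Runx1 ratio kept a log2 difference of 1.63 with CIT (exact permutation p = 0.0312). That p too was fixed by the separation of Runx3 and Runx1. The number of libraries per group, 3, limits the precision, most for Runx1 and Runx2, the lowest of the 4 genes.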
